A study of Mus musculus with 503 samples.

Results

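The 35 genes described here encode the proteins that carry a cell from G2 into and through mitosis, and they are a list of 35 symbols, drawn up with earlier results of these data known, out of 56701 gene rows, of which 34460 had a count in the cells kept. They were followed in single perivascular cells of the mouse spinal cord before and after a crush. All 35 had a count in injured cells, and all 35 reached a mean of 5 CPM (counts per 1e6 counts) over the 4 groups, as did 12304 genes in all. The members comprised 6 genes of the cyclin-dependent kinase complex, 3 of the anaphase-promoting complex and mitotic entry, 5 mitotic kinases and checkpoint genes, 3 of the chromosomal passenger complex, 4 kinetochore genes, 3 of chromosome structure, 6 of spindle assembly and 5 of the midzone and cytokinesis.

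The cells came from adult mice, female per the labels, of the genotype GLAST-CreERT2;R26R-tdTomato;Pdgfrb-eGFP. In all 4 groups, tamoxifen had switched on Cre recombinase driven by the GLAST gene, which marks cells that use this glutamate transporter and their descendants with tdTomato, and *Pdgfrb* drove EGFP in the perivascular cell types: fibroblasts, pericytes and the smooth muscle cells of vessels. Recombination is inducible and depends on GLAST activity at the time of tamoxifen, so tdTomato-EGFP+ cells can include GLAST-expressing cells that did not recombine. EGFP+ cells with or without tdTomato were sorted from uninjured cord and from the crushed thoracic segment 3 days after a complete spinal cord crush, after the outer meninges were removed and dead cells were excluded. Each deposited sample was 1 cell, sequenced by Smart-seq3, a plate-based full-length RNA method. The time of 3 days is that of the labels, which were followed where the description of the series states 5 days.

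Of 503 cells, 468 were kept. In uninjured cord they were 65 and 72 tdTomato+EGFP+ cells (plates 209 and 213) and 46 and 60 tdTomato-EGFP+ cells. After injury they were 88 and 34 tdTomato+EGFP+ cells (plates 211 and 215) and 58 and 45 tdTomato-EGFP+ cells. The summed counts of these groups, in this order, were 38406035, 26887338, 31133429 and 25645409. No label names an animal, so each group was treated as 1 sample: differences below have no replicate check, no p-value was computed, and intervals (95%) cover counting error only. Uninjured and injured cells lay on different plates, so injury and plate cannot be told apart, whereas both sorts lay on every plate. The 34 injured tdTomato+EGFP+ cells of plate 215 were shallow, with a median of 14770 counts per cell and 5.39% of the counts of their group. The sorts did not hold the same mix of cells. The summed level of 8 pericyte markers was 10980, 12150, 667.6 and 11150 CPM in the 4 groups in the order above, and that of 9 fibroblast markers 4382, 2339, 22150 and 9885 CPM.

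Mitosis is driven by Cdk1 bound to cyclins A and B, whose genes are switched on late in the cell cycle together with those of the spindle, the kinetochore and the machinery of cytokinesis. In resting and early-cycle cells these genes are held off by a repressor complex that binds a short promoter element, the cell cycle genes homology region (CHR). In dividing cells, B-Myb and FoxM1 act through the same element, often beside CCAAT boxes bound by NF-Y. Adult perivascular cells rarely divide, and proliferation of stromal cells is a known early step of scar formation in the injured cord. The mRNAs of these genes are largely confined to S, G2 and M phase, so that their level in a pool of cells depends on how many cells are in those phases as well as on how much each contains.

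The shared promoter elements are shown first, since they are what the members have in common beyond the names on the list. RefSeq promoters (GRCm38.p6, 250 bases before to 50 after the annotated start) were matched for 29 of the 35 members, as 31 promoters. The stretches below are the 150 bases before the start, 5′ to 3′ on the gene's strand, with CHR matches (TTTGAA or TTTAAA on either strand) and CCAAT matches (CCAAT or ATTGG) in capitals. *Ccnb2*, *Hmmr*, *Ttk* and *Top2a* are shown for repeated CCAAT boxes, *Mki67*, *Kif11* and *Top2a* for the CHR, and *Nuf2* as a member that has neither. They lie at chr9:70421555-70421704 (minus strand, *Ccnb2*), chr11:40733438-40733587 (minus, *Hmmr*), chr9:83834539-83834688 (plus, *Ttk*), chr11:99024190-99024339 (minus, *Top2a*), chr7:135716380-135716529 (minus, *Mki67*), chr19:37376232-37376381 (plus, *Kif11*) and chr1:169531465-169531614 (minus, *Nuf2*).
Ccnb2: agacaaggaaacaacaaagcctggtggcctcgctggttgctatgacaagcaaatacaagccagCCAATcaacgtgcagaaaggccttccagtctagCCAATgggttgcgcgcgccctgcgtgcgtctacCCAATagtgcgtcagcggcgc
Hmmr: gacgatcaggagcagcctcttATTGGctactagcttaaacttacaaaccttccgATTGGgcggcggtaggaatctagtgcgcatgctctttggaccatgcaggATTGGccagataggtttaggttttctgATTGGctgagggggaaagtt
Ttk: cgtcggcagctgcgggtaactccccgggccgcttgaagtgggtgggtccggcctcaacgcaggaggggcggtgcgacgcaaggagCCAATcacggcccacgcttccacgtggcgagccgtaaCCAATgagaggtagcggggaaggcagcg
Top2a: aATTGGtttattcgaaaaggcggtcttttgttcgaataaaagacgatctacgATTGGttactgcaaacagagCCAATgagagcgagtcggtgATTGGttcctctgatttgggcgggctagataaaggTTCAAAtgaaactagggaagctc
Mki67: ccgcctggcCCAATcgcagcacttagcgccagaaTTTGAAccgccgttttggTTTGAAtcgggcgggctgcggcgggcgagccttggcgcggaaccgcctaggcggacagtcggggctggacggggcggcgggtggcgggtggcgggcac
Kif11: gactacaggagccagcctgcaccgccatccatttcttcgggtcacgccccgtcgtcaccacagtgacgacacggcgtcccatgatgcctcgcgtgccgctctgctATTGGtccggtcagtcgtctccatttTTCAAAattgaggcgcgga
Nuf2: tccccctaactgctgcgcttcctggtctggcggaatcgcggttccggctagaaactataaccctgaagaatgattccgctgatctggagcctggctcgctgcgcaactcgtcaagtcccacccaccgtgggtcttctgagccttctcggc

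A CHR match was found in 26 of the 31 member promoters (83.87%), against 27.59% of all 32851 promoters of the same length. CCAAT was found in 24 (77.42%, against 37.41%), and 17 held at least 2. Both elements together were present in 22 (70.97%), against 10.73% of all promoters. A list of 43 S-phase genes (DNA replication genes such as *Mcm5* and *Rrm2*) gave another picture: of its 36 promoters, 9 held a CHR match, 69.44% held CCAAT and 38.89% held an E2F site (TTTGGCGC, TTTCCCGC or TTTCGCGC). Only 1 member promoter, that of *Cdk1*, held such an E2F match (3.226%, against 1.845% of all promoters). Of the other G2/M genes, a list of 41, 73.17% of 41 promoters held a CHR match and 73.17% CCAAT.

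The CCAAT boxes of several members held pairs of like spacing. In *Ccnb2* they lay 87, 54 and 21 bases before the start, in *Ccnb1* 99 and 67, in *Aurka* 51 and 19 and in *Cdk1* 80 and 48, with a further box at 208. A pair 31 to 34 bases apart, a spacing chosen after these positions were seen, was present in 8 of 31 member promoters (25.81%), in 8.333% of S-phase promoters, in 14.63% of other G2/M promoters and in 1.196% of all promoters. *Nuf2*, *Nusap1* and *Tacc3* had no match of either element, which says only that these letters are absent from the window. These matches describe the sequence, and no binding was measured.

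**Figure D1:**
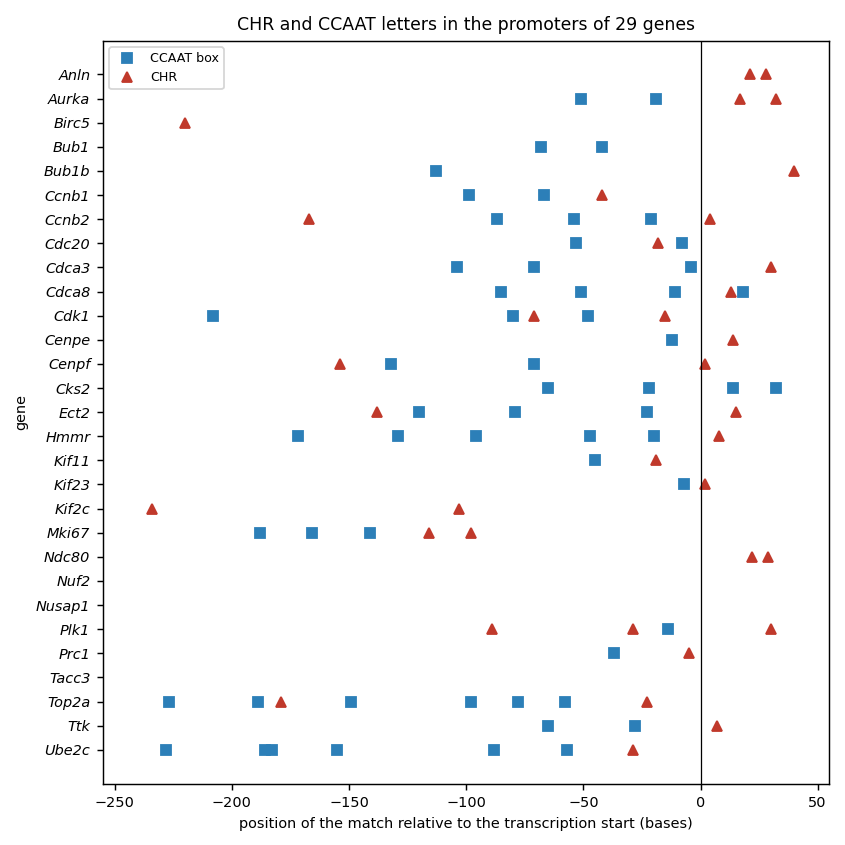
Positions of CHR matches (triangles) and CCAAT matches (squares), on either strand, in the promoters of the 29 members with a RefSeq promoter (vertical axis, 1 promoter drawn per gene), by distance in bases from the annotated start (horizontal axis, negative before the start). Most CHR matches lie close to the start, CCAAT boxes lie mostly before it, and *Nuf2*, *Nusap1* and *Tacc3* have neither.

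Most of the 35 genes were low in uninjured perivascular cells of both sorts, and all 35 were higher in both sorts after injury. Before injury 32 (tdTomato+EGFP+) and 31 (tdTomato-EGFP+) members were under 10 CPM, and *Kif20a*, *Smc4* and *Ccna2* were above it in both sorts. The summed level of the 35 genes before injury was 132.8 CPM in the tdTomato+EGFP+ and 122.7 CPM in the tdTomato-EGFP+ sort. After injury it was 4133 and 2608 CPM. By plate, the uninjured sums were 138.1 and 128.9 CPM (tdTomato+EGFP+, plates 209 and 213) and 110.7 and 128.4 CPM (tdTomato-EGFP+). The injured sums were 4154 and 3759 CPM (tdTomato+EGFP+, plates 211 and 215) and 3085 and 2174 CPM (tdTomato-EGFP+). Every injured plate thus lay above every uninjured plate in both sorts, and tdTomato+EGFP+ lay above tdTomato-EGFP+ on both injured plates.

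**Figure D2:**
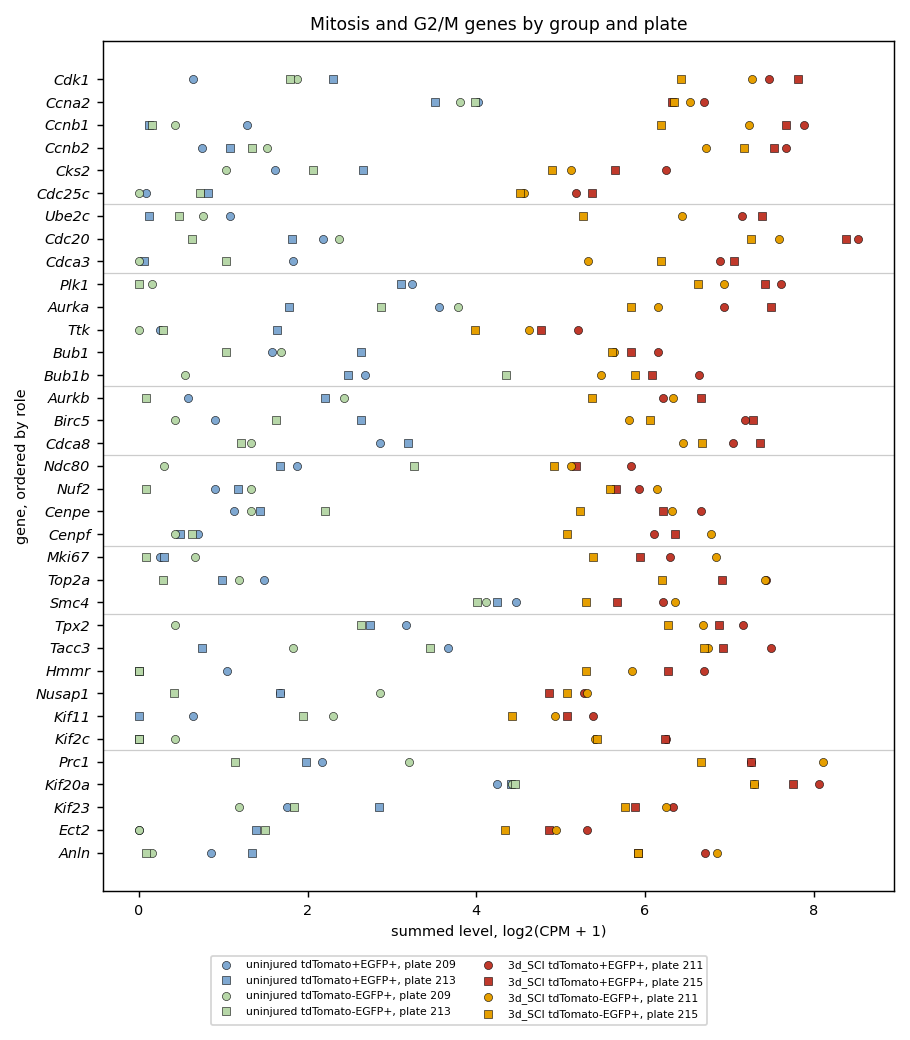
Level of each of the 35 members (rows, ordered by role) as log2(CPM + 1) of summed counts (horizontal axis), with 1 point for each group and plate (colour for the group, shape for the plate). The injured points of all 35 members lie to the right of the uninjured points of the same sort, and on both injured plates tdTomato+EGFP+ lies above tdTomato-EGFP+ for 26 members. The latter was not counted over all genes.

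Groups were compared by the difference of log2(CPM + 1), which understates changes of genes near 1 CPM. The median member was higher after injury by 4.82 in tdTomato+EGFP+ cells (4.59 to 5.06 over the 4 injured-uninjured plate pairs) and by 4.61 in tdTomato-EGFP+ cells (4.58 to 4.98), where the medians of all 12304 genes were -0.59 and -0.18. A gene was counted as higher or lower where it differed by 1 or more on this scale (about 2-fold) with the same sign on every plate or plate pair. By this rule all 35 members were higher after injury in tdTomato+EGFP+ cells, against 10.2% of all genes (33.7% were lower), and all 35 in tdTomato-EGFP+ cells, against 9.43% (16.2% were lower). With the scale factors of edgeR's TMM, all genes moved up by 0.68 and 0.29 in these comparisons and the split of higher and lower genes became 19.2% and 19.5%, and 13.8% and 10.7%. With DESeq2's size factors it became 21.95% and 17.3%, and 12.9% and 11.4%. All 35 members remained higher under both. The summed levels of 6 endothelial markers (3971, 4349, 353.9 and 1505 CPM) and of the pericyte and fibroblast markers given above also moved with injury, and their part in these differences was not tested.

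Of the genes of the kinase that starts mitosis, *Cdk1*, *Ccnb1* and *Ccnb2* differed by more than the median member in tdTomato+EGFP+ cells, and *Cdc25c*, *Cks2* and *Ccna2* by less. *Cdk1*, its catalytic subunit, was at 2.53 CPM in both uninjured groups. After injury it was at 176.4 and 223.6 CPM on the plates of tdTomato+EGFP+ cells and at 153.9 and 85.3 CPM on those of tdTomato-EGFP+ cells. *Ccnb1*, which encodes cyclin B1, was at 0.651, 0.186, 234.8 and 109.2 CPM in the order of groups given above, from 25 and 5 counts in the uninjured groups. These counts lay in 3 and 4 cells, and most of the 25 came from 1 cell. The ratio of injured to uninjured CPM of *Ccnb1* was 361 (244 to 558) in tdTomato+EGFP+ and 587 (251 to 1810) in tdTomato-EGFP+ cells. These intervals treat counts as independent and leave out the spread between cells, so they understate the uncertainty. The difference of *Ccnb1* of 7.16 on the log2 scale in tdTomato+EGFP+ cells was the largest of any member. *Ccnb2*, cyclin B2, whose promoter is shown above, was at 0.937, 1.64, 201.6 and 124.9 CPM. *Ccna2*, cyclin A2, which also acts in S phase, differed less, at 12.4, 14.2, 102.1 and 85.9 CPM. *Cks2*, a small adaptor of the kinase, was at 3.96, 2.49, 73.5 and 31.2 CPM. *Cdc25c*, the phosphatase that activates Cdk1, was at 0.469, 0.446, 35.7 and 22.2 CPM.

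The genes that end mitosis by destroying cyclin B and securin were low before injury too. *Cdc20*, the activator of the anaphase-promoting complex, was at 2.94, 1.71, 367 and 171 CPM. *Ube2c*, the ubiquitin-conjugating enzyme of that complex, was at 0.521, 0.484, 142.4 and 60.6 CPM. *Cdca3*, a factor of mitotic entry, was at 1.09, 0.707, 118.4 and 56.5 CPM. The median difference of these 3 genes with injury was 6.55 in tdTomato+EGFP+ and 5.38 in tdTomato-EGFP+ cells, the highest of the 8 roles in tdTomato+EGFP+ cells. In tdTomato-EGFP+ cells the 3 chromosome structure genes were highest, at 5.97.

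The mitotic kinases and checkpoint genes differed in some cases between the uninjured sorts. *Plk1*, which acts from mitotic entry to cytokinesis, was at 7.94 CPM before injury in the tdTomato+EGFP+ sort, had a single count in the other, and was at 193.5 and 109.3 CPM after injury. *Aurka*, the kinase of the spindle poles, was at 5.94, 8.37, 124.9 and 62.9 CPM. *Ttk* and *Bub1*, checkpoint kinases, reached 35.4 and 69.5 CPM in injured tdTomato+EGFP+ cells and 19.03 and 48.3 CPM in injured tdTomato-EGFP+ cells. *Bub1b*, which encodes the checkpoint protein BubR1, was at 4.92, 13.4 and 96.7 CPM in the other groups and at 43.5 and 57.8 CPM on the plates of injured tdTomato-EGFP+ cells, and 64.07% of its counts in uninjured tdTomato-EGFP+ cells came from 1 cell. Such single cells were common where levels were low: for 14 members in uninjured tdTomato+EGFP+ cells and 19 in uninjured tdTomato-EGFP+ cells, at least 50% of the counts came from 1 cell.

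The chromosomal passenger complex corrects faulty attachments of chromosomes to the spindle. *Birc5*, survivin, was at 3.39, 1.53, 145.3 and 60.7 CPM. *Cdca8*, borealin, was at 7.32, 1.38, 132.5 and 94.1 CPM, and *Aurkb*, the kinase of the complex, at 2.32, 1.45, 74.6 and 58.96 CPM. Of these, *Birc5* differed most between the injured sorts and *Aurkb* least. The kinetochore genes followed: *Ndc80* and *Nuf2*, partners in the complex that grips microtubules, reached 55.1 and 59.3 CPM in injured tdTomato+EGFP+ cells, and *Cenpe*, a motor, and *Cenpf* reached 99.3 and 68.6 CPM. In injured tdTomato-EGFP+ cells they were at 31.6, 57.9, 56.9 and 68.9 CPM. Of the *Ndc80* counts in uninjured tdTomato-EGFP+ cells, 81.13% came from 1 cell. *Nuf2*, which lacked both promoter elements, was higher with injury by 4.85 and 5.28, above the median member. Of the other members without them, *Nusap1* was higher by 3.58 and 3.50, under the median member in both sorts, and *Tacc3* by 4.82 and 3.62. Any part of the elements in these differences was not tested.

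*Mki67*, which encodes the proliferation marker Ki-67, was nearly absent before injury, at 0.208 and 0.223 CPM from 8 and 6 counts, and was at 76.99 and 75.61 CPM after it. The 8 and 6 counts lay in 3 and 5 cells. The ratio of injured to uninjured CPM of *Mki67* was 370 (187 to 857) in tdTomato+EGFP+ and 338.8 (155.4 to 924.4) in tdTomato-EGFP+ cells. These intervals, too, leave out the spread between cells. *Top2a*, the topoisomerase that untangles sister chromatids, was at 1.33, 0.558, 168.9 and 119.2 CPM. *Smc4*, a condensin subunit, had the smallest difference of any member in tdTomato+EGFP+ cells, 3.73-fold (3.43 to 4.06), from 19.3 and 15.5 CPM before injury to 72.1 and 58.7 CPM after it. *Mki67* and *Top2a* thus differed far more than the condensin gene, which was already present before injury.

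Of the spindle genes, 2 were not detected in 1 uninjured group. *Hmmr* had no count in uninjured tdTomato-EGFP+ cells and was at 47.1 CPM after injury, at least 422-fold higher against a floor of 3 counts over the group. *Kif2c*, a kinesin that takes microtubules apart, had no count in uninjured tdTomato+EGFP+ cells and was at 74.9 CPM after injury, at least 959-fold higher. *Tpx2* and *Tacc3*, which build the spindle around chromosomes and poles, went from 6.64 and 5.29 CPM before injury to 140.9 and 176.6 CPM after it in the tdTomato+EGFP+ sort. *Kif11*, the motor that separates the poles, was at 0.234, 3.20, 40.2 and 24.9 CPM, and *Nusap1* at 2.19, 2.23, 37.2 and 35.6 CPM.

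The genes of the midzone and of cytokinesis, which act last, were high as well. *Prc1*, which bundles midzone microtubules, was at 3.18, 3.46, 152.5 and 183.4 CPM in the 4 groups, with 274.8 CPM on plate 211 and 100.5 CPM on plate 215 in injured tdTomato-EGFP+ cells, where 32.59% of its counts came from 1 cell. *Anln*, anillin, was at 1.22 CPM and at 2 counts in the uninjured groups and at 101.4 and 85.7 CPM after injury. *Kif23* and *Ect2*, which place the cleavage furrow, reached 78.2 and 38.2 CPM in injured tdTomato+EGFP+ and 63.8 and 24.3 CPM in injured tdTomato-EGFP+ cells. *Kif20a* was at 19.3 and 20.8 CPM before injury and at 263.5 and 155.5 CPM after it.

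*Kif20a*, *Smc4* and *Ccna2* were detected in the largest shares of thinned uninjured cells (given below). In GENCODE vM21 (GRCm38), 29.3% of the exonic bases of *Kif20a* overlap *Cdc23* on the opposite strand, which had 5284 and 4199 counts in the uninjured groups, and 12.49% of those of *Ccna2* overlap *Exosc9* in the same way. *Smc4* overlaps no other gene. In all, the exons of 11 members overlap another gene, and whether the counting used strand is not given in the sources used here. Over the 24 members that overlap no other gene, the median difference with injury was 4.95 in tdTomato+EGFP+ and 4.49 in tdTomato-EGFP+ cells.

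Between the sorts, the members were higher in tdTomato+EGFP+ than in tdTomato-EGFP+ cells after injury by less than the injury difference. The median member differed by 0.67 (0.58 on plate 211 and 0.69 on plate 215), where the median of all genes was -0.35, and 33 of 35 were above 0. Within plates, 26 members were higher in tdTomato+EGFP+ on both plates, 1 (*Nusap1*) was lower on both and 8 changed sign. These signs were not counted over all genes. By the 2-fold rule 7 members were higher (*Ccnb1*, *Cks2*, *Ube2c*, *Cdc20*, *Cdca3*, *Birc5* and *Hmmr*), against 3.88% of all genes, and 0 were lower, against 18.4%. *Birc5* differed most, at 144.8 against 55.2 CPM on plate 211 and 154.4 against 65.6 CPM on plate 215. All 3 genes of the anaphase-promoting complex and mitotic entry were among the 7.

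The 8 members that changed sign between the plates were *Ccna2*, *Aurkb*, *Nuf2*, *Cenpf*, *Mki67*, *Smc4*, *Prc1* and *Anln*. *Mki67* differed by 0.03 between the sorts (-0.54 on plate 211 and 0.55 on plate 215), *Cenpf* by -0.01 (-0.67 and 1.29) and *Prc1* by -0.27 (-0.85 and 0.60). In these 3 genes the difference between the sorts was smaller than the spread between plates. The injured tdTomato-EGFP+ sum of plate 211 held 1 cell with 28850 CPM of member counts, which contributed 21.98% of the member counts of the whole group and was the top cell for 25 of the 35 members. Without the top cell of each group the median member differed between the sorts by 0.86. The number of members past 2-fold was 21 with TMM factors and 25 with DESeq2 factors, under which 7.73% and 10.5% of all genes were higher and 12.3% and 10.6% lower. It was 4 without plate 215 and 8 without plate 211. The difference between the sorts is given with the pericyte markers (667.6 against 11150 CPM) and fibroblast markers (22150 against 9885 CPM), and their part in it was not tested.

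In uninjured cells the sorts showed no common direction: the median member differed by 0.04, and 20 of 35 were above 0. The 4 members past 2-fold upwards (*Plk1*, *Ttk*, *Cdca8* and *Anln*, against 4.45% of all genes) and the 1 downwards (*Kif11*, against 3.49%) were all under 8 CPM in both groups. The difference with injury was larger in tdTomato+EGFP+ than in tdTomato-EGFP+ cells for 22 of 35 members. The median excess was 0.56 from the group sums and lower, 0.20 to 0.54, over plate pairings, where the median of all genes was -0.39 from the group sums. In every plate pairing the excess was above 0 for 11 members and under 0 for 4. These counts, and those of 20 and 22 of 35 members, were not made over all genes. This excess has no replicate check.

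Since every sample was 1 cell, the group levels could be split into how many cells used these genes and how much each contained. The summed CPM of the 35 members had a median of 78.1 and 68.1 per cell before injury in the tdTomato+EGFP+ and tdTomato-EGFP+ sorts. After injury the medians were 1904 and 204.2. The highest cells stood at 953.9, 1200, 16780 and 28850 CPM. At least 1000 CPM was reached by 0, 1, 78 and 30 cells of the 4 groups (0.0%, 0.943%, 63.9% and 29.1%), and at least 5000 CPM by 0, 0, 36 and 15 cells. The middle cell of the injured tdTomato-EGFP+ group, at 204.1 and 204.9 CPM on its plates, lay above the third quartile of the uninjured tdTomato-EGFP+ cells (150.3 CPM) and far under the mean of its own group (2280 CPM). In injured tdTomato+EGFP+ cells the median was 2191 CPM on plate 211 and 1352 CPM on plate 215.

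**Figure D3:**
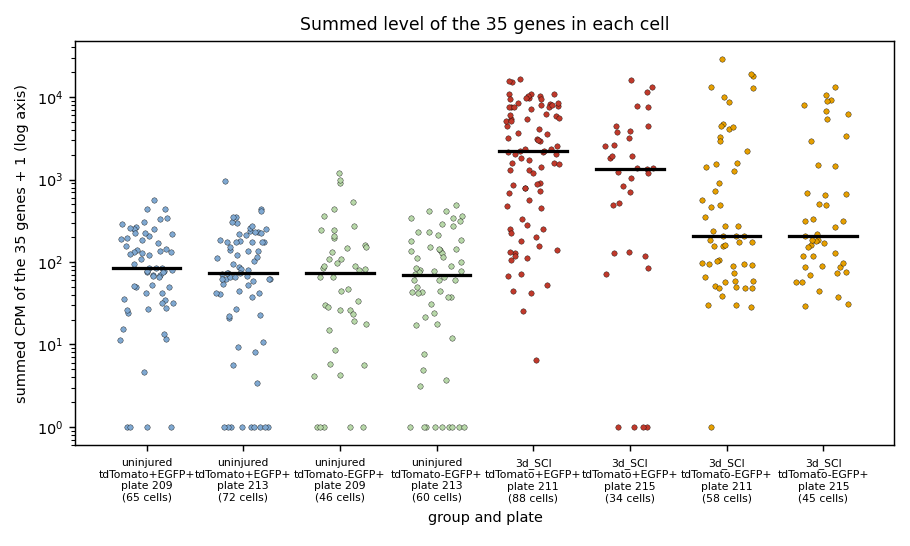
Summed CPM of the 35 members in each of the 468 cells kept (points), with 1 CPM added for the log axis, by group and plate, with the median as a line. Uninjured cells lie at or under 1200 CPM, injured tdTomato+EGFP+ cells reach 16780 CPM around a median of 1904, and injured tdTomato-EGFP+ cells split into many low cells (median 204) and a high minority that reaches 28850 CPM.

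Depth differs between cells, so each cell was thinned to 20000 counts, which left 421 cells and dropped 47 shallower ones, 10, 14, 22 and 1 in the 4 groups, 21 of the 22 from plate 215. A count of at least 5 of the 35 members was then found in 2 tdTomato+EGFP+ cells of uninjured cord, 0 of 63 on plate 209 and 2 of 64 on plate 213 (1.575%, exact binomial interval 0.191 to 5.57), and in 1 of 92 tdTomato-EGFP+ cells (1.087%, 0.0275 to 5.91). After injury it was found in 79 of 100 tdTomato+EGFP+ cells (interval 69.7% to 86.5%) and in 38 tdTomato-EGFP+ cells, 37.25% of them (27.9 to 47.4). The shares were 79.31% and 76.92% on plates 211 and 215 for tdTomato+EGFP+ cells and 39.66% and 34.09% for tdTomato-EGFP+ cells, so the tdTomato+EGFP+ share was the higher on each plate, although plate 215 rests on 10 of 13 such cells (46.19% to 94.96%). Before thinning the shares were 28.47%, 23.58%, 84.43% and 70.87%. Cells with 3 to 7 members, near the limit, numbered 26, 12, 10 and 21. A limit of 10 members gave 0, 1, 68 and 28 cells. Other random draws of the thinning, 20 in all, gave 1 to 6, 1 to 3, 75 to 79 and 36 to 43 cells.

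Each of the 35 members was found in a larger share of injured tdTomato+EGFP+ than of injured tdTomato-EGFP+ cells. The same was not counted over all genes, and the intervals below cover counting error of cells only. *Ccnb2* was detected in 71 of 100 tdTomato+EGFP+ cells (61.1% to 79.6%) against 23.5% of tdTomato-EGFP+ cells (15.69 to 32.96), *Birc5* in 64 of 100 against 24.5% and *Ccnb1* in 59 of 100 against 21.6%. The shares were closest for *Kif11*, at 25 of 100 against 18.6%, and *Prc1*, at 45 of 100 (35.03% to 55.27%) against 36.3% (26.98 to 46.39). Over the 35 members the number ranged from 25 to 72 of 100 cells (median 49) in the injured tdTomato+EGFP+ sort, and the share from 14.7% to 39.2% with a median of 23.5% in injured tdTomato-EGFP+ cells. In uninjured cells the medians were 2.36% and 2.17%, and no member exceeded 7.87% other than *Kif20a*, *Smc4* and *Ccna2*. *Ccnb1* and *Kif2c* were found in no uninjured cell at this depth, which allows a share of cells with a count at 20000 counts of up to 2.362% and 3.261% in the 2 sorts (3 cells of those thinned). Without thinning, *Ccnb1* had a count in 3 and 4 uninjured cells and *Kif2c* in 0 and 1.

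**Figure D4:**
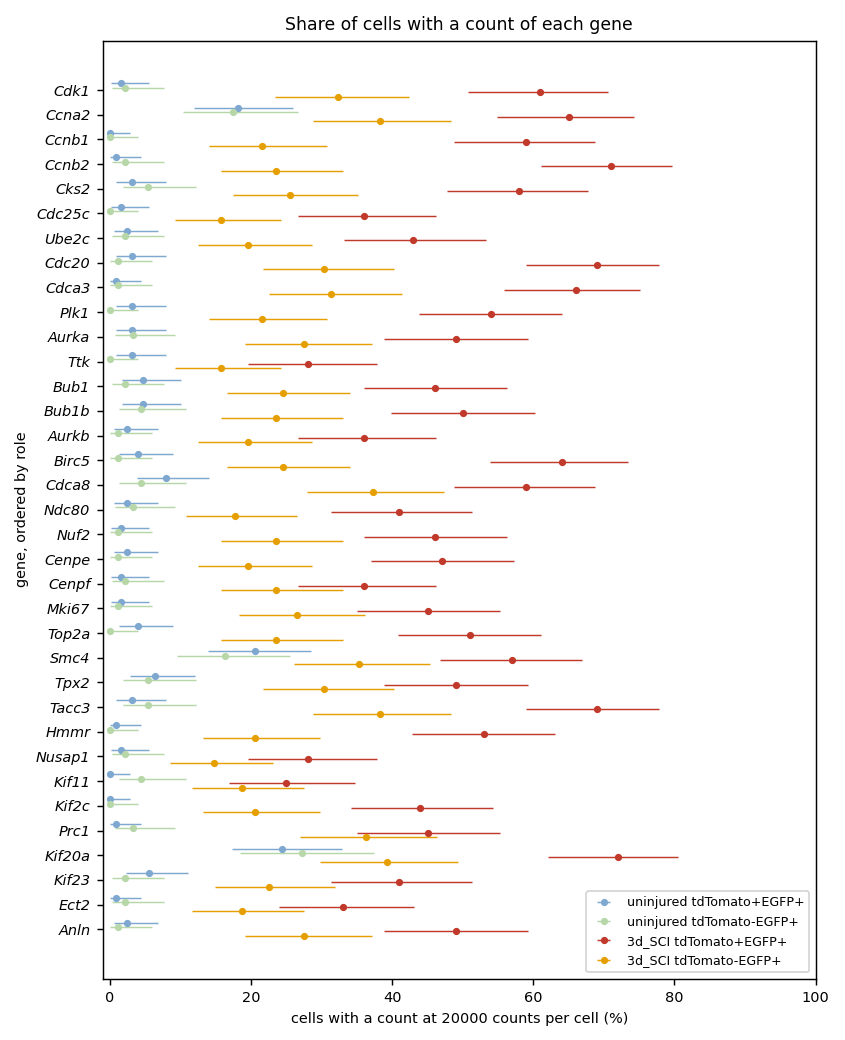
Percent of cells with a count of each member after thinning to 20000 counts per cell, for the 4 groups, with exact binomial 95% intervals that cover counting error only. The 100 injured tdTomato+EGFP+ cells hold each member in 25 to 72 cells, injured tdTomato-EGFP+ cells lie at 14.7% to 39.2%, and uninjured cells near 0 except for *Kif20a*, *Smc4* and *Ccna2*.

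Among cells with at least 5 members the order of the sorts depended on the measure. Their mean summed level was 4759 CPM in 79 injured tdTomato+EGFP+ cells and 6020 CPM in 38 injured tdTomato-EGFP+ cells, 4918 against 6546 CPM on plate 211 and 3665 against 5213 CPM on plate 215. The median cell stood at 3400 against 3825 CPM, at 3500 against 2950 CPM on plate 211 and at 1600 against 5550 CPM on plate 215, so that on plate 211 the mean and the median gave opposite orders. These cells were chosen by the same genes, so the values describe the cells and test nothing. Of the 35 members, 26 were lower in the tdTomato+EGFP+ cells of this kind, 1 of them past 2-fold (*Prc1*, 170.3 against 450.0 CPM, -1.40 on the log2 scale), and 9 were higher, none past 2-fold. On plate 211, 28 were lower, 4 of them past 2-fold, and 7 were higher. On plate 215, with 10 such tdTomato+EGFP+ cells, 31 were lower, 6 of them past 2-fold, and 4 were higher. No higher member was past 2-fold on either plate. The same was not counted over all genes. Without the top cell of each sort the sums were 4635 and 5365 CPM and 23 members were lower. The median cell had 23 members detected in the tdTomato+EGFP+ and 23.5 in the tdTomato-EGFP+ sort.

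Injured cells with fewer than 5 members were at 109.5 and 127.3 CPM, and 99.39% and 96.56% of the thinned member counts lay in the cells above the limit. The limit was set on the same genes, so low sums under it are built in and these values test nothing. Median depth before thinning was 324666 counts in the cells above the limit and 254702 in those under it for tdTomato+EGFP+, and 217399 and 198032 for tdTomato-EGFP+. Markers of cell type were present on both sides of the limit. Fibroblast markers summed to 18730 CPM above and 34020 CPM under the limit in tdTomato+EGFP+ cells, and to 6662 and 12440 CPM in tdTomato-EGFP+ cells. Pericyte markers summed to 584.8 and 1629 CPM, and to 9057 and 16400 CPM. Immune markers were at 18.99 and 28.57 CPM, and at 40.79 and 25.78 CPM, with *Pdgfrb* itself at 1247 and 1352 CPM, and at 2574 and 2928 CPM.

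S-phase genes separated the same cells further. Cells with at least 5 members had a median of 25 (tdTomato+EGFP+) and 26.5 (tdTomato-EGFP+) of 43 S-phase genes detected at this depth, against 8 and 9 in the other injured cells and 7 in uninjured cells under the limit. The 2 programs were high together in some cells and apart in others. With limits of 20 set after the plot of both counts was seen, 55 injured tdTomato+EGFP+ cells had at least 20 S-phase genes, of which 21 had fewer than 20 members and 34 had at least 20, and 14 further cells had at least 20 members with fewer than 20 S-phase genes. In injured tdTomato-EGFP+ cells the numbers were 32, 16, 16 and 7. The highest number of S-phase genes in an uninjured cell was 16. All 35 members were detected in 2 injured tdTomato+EGFP+ cells and in 1 injured tdTomato-EGFP+ cell. Over the 202 thinned injured cells the Spearman correlation between the summed members and the number of S-phase genes was 0.66, over points that share their sorts and plates.

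**Figure D5:**
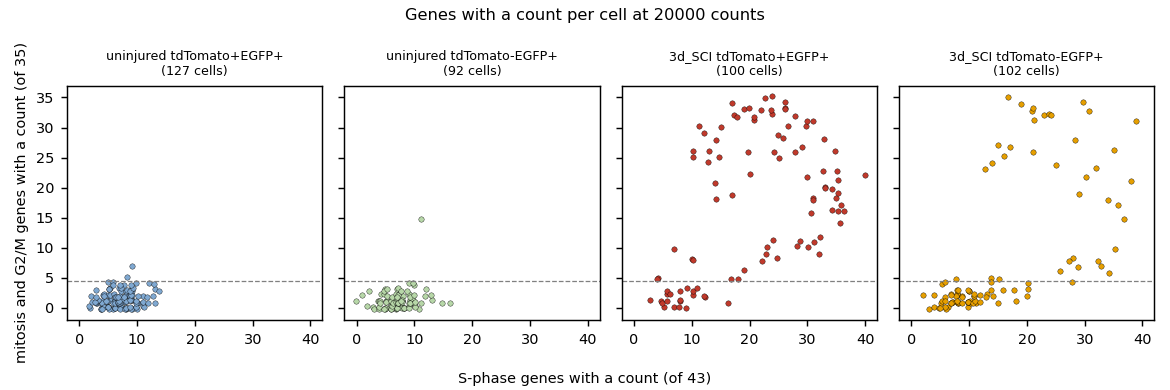
Members detected (of 35, vertical axis) against S-phase genes detected (of 43, horizontal axis) in each cell thinned to 20000 counts, with a panel for each group, small random shifts so that points stay visible, and a dashed line at the limit of 5 members. Uninjured cells stay at or under 16 S-phase genes with at most 15 members, whereas injured cells of both sorts spread over cells with many S-phase genes and few members, cells with many of both, and cells with many members and fewer S-phase genes.

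Within injured cells the members varied together. The Spearman correlation of each member with the sum of the other 34 ranged from 0.54 (*Smc4*) to 0.85 (*Cdc20*), with a median of 0.73. These values, and those of the non-members below, pool both sorts. Within the sorts the members ranged from 0.46 (*Ttk*) to 0.87 (*Cdc20*) in tdTomato+EGFP+ cells. In tdTomato-EGFP+ cells they ranged from 0.42 (*Smc4*) to 0.76 (*Anln*). The non-member genes most like the list, among 8132 genes detected in at least 20% of the 202 cells, were *Kif22* (0.82), *Hmgb2* (0.79), *Pimreg* (0.79), *Pbk* (0.78), *Cenpa* (0.77), *Knstrn* (0.75), *Spc24* (0.74), *Ckap2* (0.73), *Cks1b* (0.73) and *Racgap1* (0.73). Of these 10, 9 belonged to the lists of other cell cycle genes. *Hmgb2*, a chromatin protein, was also well expressed before injury, at 41.8 and 33.7 CPM, and was at 231.6 and 107.1 CPM after it, and *Cenpa*, the centromeric histone, at 6.74, 10.5, 131.2 and 79.1 CPM.

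The cells above the limit were not spread evenly over the clusters of cells. Clustering without the genes of the cell cycle lists gave 6 clusters, here called by number. Genes off those lists that vary with the members, such as *Pimreg* (correlation 0.79), could remain. The clusters are thus not free of the cell cycle, and the part of such genes in them was not tested. Cluster 2, led by *Tfpi2*, *Bcat1*, *Has2* and *Inhba*, held 95 injured tdTomato+EGFP+ cells, 66 of the 88 on plate 211 and 29 of the 34 on plate 215, and 72 of 78 thinned ones (92.31%) had at least 5 members, as did 5 of 5 injured tdTomato-EGFP+ cells. Cluster 3, led by *Myoc* and *Itgbl1*, was lower in both sorts, with 4 of 17 (23.53%) and 7 of 23 (30.43%) cells. The other injured tdTomato-EGFP+ cells lay mostly in cluster 5, led by *Ednrb* and *Postn*, with 20 of 51 cells (39.22%), and in cluster 4, led by *Gpr20*, *Olfr78* and *Pln*, with 6 of 17 (35.29%). In clusters 3 and 4 the uninjured cells were 0 of 26 and 0 of 8, and 0 of 21 and 1 of 22. Cluster 2 also held 14 uninjured tdTomato+EGFP+ and 10 uninjured tdTomato-EGFP+ cells, at medians of 4984 and 2206 counts per cell. Thinning left 5 and 2 of these, of which 1 and 0 had at least 5 members. The intervals of the shares in cluster 3, 6.81 to 49.9 and 13.2 to 52.9, cover counting error of cells only and test no difference between the sorts. At a resolution of 0.3, which gave 3 clusters, the cluster that held most injured tdTomato+EGFP+ cells had 76 of 95 tdTomato+EGFP+ and 12 of 28 tdTomato-EGFP+ cells (42.86%) with at least 5 members.

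The other cell cycle genes gave the context. Of the 43 S-phase genes, 30 were higher in each sort after injury and none lower, with median differences of 1.97 and 1.89. *Rrm2*, a subunit of the enzyme that makes deoxynucleotides, was at 0.234, 3.50, 362.5 and 143.1 CPM, and *Mcm5*, of the replicative helicase, at 26.2, 18.5, 200 and 168 CPM. *Pcna*, the replication clamp, was at 81.4, 62.2, 142.8 and 165.5 CPM. Against the same shares of all genes, 31 of the 41 other G2/M genes were higher and 1 lower in tdTomato+EGFP+ cells. In tdTomato-EGFP+ cells 29 were higher and 1 lower, and the medians in the sorts were 3.62 and 2.80. The 1 lower was *Pttg1*, securin, at 180, 162, 29.9 and 65.2 CPM. *Knstrn*, a kinetochore and spindle gene, differed most, by 5.96 and 5.78.

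The regulators of the mitotic genes moved little by comparison. Of 18, 4 were higher and 2 lower in tdTomato+EGFP+ and 3 higher and 0 lower in tdTomato-EGFP+ cells, where 10.2% and 33.7%, and 9.43% and 16.2%, of all genes were. *Foxm1*, the activator of G2/M genes, was at 3.15, 0.521, 20.3 and 21.4 CPM, and *Mybl2*, B-Myb, at 2.16, 0.930, 7.48 and 8.93 CPM. *Rbl2*, the pocket protein p130 of the repressor complex, was at 45.8, 59.5, 12.5 and 32.99 CPM. By the 2-fold rule *Foxm1* and *Mybl2* were higher in both sorts, although 1 plate pair of *Mybl2* in tdTomato+EGFP+ cells was under 1 on the log2 scale (0.86), and *Rbl2* was lower in tdTomato+EGFP+ cells (-1.79) and at -0.83 in tdTomato-EGFP+ cells. *Lin54*, the DNA-binding subunit that contacts the CHR, had counts on plate 211 alone (12.3 and 6.07 CPM in the 2 sorts) and is listed at 0 on the other 3 plates. Plate 211 holds some symbols that the other plates lack, so no direction is drawn for it.

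The genes that govern entry into the cycle did not move as 1 group. Of 19 G1 genes and inhibitors of cyclin-dependent kinases, 8 were higher and 7 lower in tdTomato+EGFP+ cells, and 5 higher and 3 lower in tdTomato-EGFP+ cells. The numbers lower are near the shares of all genes that were lower (33.7% and 16.2%). The shares of all genes that were higher were 10.2% and 9.43%. *Cdkn1a*, the inhibitor p21, was at 371.4, 266.3, 27.6 and 111.8 CPM and *Cdkn1b*, p27, at 80.7, 78.4, 23.1 and 40.6 CPM. *Cdkn1c*, p57, was at 16.4, 6.92, 1.64 and 10.5 CPM, lower in tdTomato+EGFP+ cells by 2.72. The D cyclins were not higher: *Ccnd1* was at 97.6, 192, 70.8 and 85.4 CPM and *Ccnd2* at 167, 219, 46.9 and 183 CPM. *E2f1*, a transcription factor of S-phase genes, was higher by 4.18 and 3.49. Under TMM scaling these differences shift up by 0.68 in tdTomato+EGFP+ and by 0.29 in tdTomato-EGFP+ cells, which turns the sign of *Ccnd1* in tdTomato+EGFP+ (-0.46) and of *Ccnd2* in tdTomato-EGFP+ cells (-0.26).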

How the data were processed

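Single perivascular cells in 4 groups (sort by injury) were profiled by Smart-seq3. The authors deposited whole-number counts of genes by cells in a single table, of which the columns of 503 labelled cells were used and 1465 were not. The submitters' processing notes name mm10. Which aligner and annotation release were used, and if molecules or reads were counted, is not given in the sources used here, so levels were not compared between genes. Rows of ERCC spike-in RNA (92, 0.0314% of counts) were left out of library sizes.

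Cells were kept with 200 or more genes, under 20% mitochondrial counts, *Gfap* and *Ptprc* at or under 1 on the ln(1 + counts per 10000) scale, and not *Pecam1* over 1 and over *Pdgfrb*, which removed 34 cells. Each well was meant to receive 1 sorted cell, and doublets were not called. Whether some wells held more than 1 cell was not tested. Counts were summed per group, scaled to CPM and compared with a pseudocount of 1. With 1 sample a group no test was made. Intervals were exact Poisson or binomial ones. Those of CPM ratios treat counts as independent and leave out the spread between cells. Clusters came from Seurat 5.3.0 on 2000 variable genes, and scale factors from edgeR 4.0.16 and DESeq2 1.42.0. The scripts were tested on simulated data.

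The members and the other lists were chosen with earlier results of these data known. Named were all members, a fixed set of other cycle genes, the gene of each list with the largest difference each way with injury, and the 10 genes most like the summed members.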

Additional observations from a re-analysis of the deposited data

Results flagged for a closer look

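ERCC spike-in RNA, which is no part of the comparisons, was found on 1 plate only. On plate 211 it took 0.0752% of the counts of injured tdTomato+EGFP+ cells and 0.155% of those of injured tdTomato-EGFP+ cells, and it had no count on plates 209, 213 and 215. It was singled out as signal outside the main measurement, and it moves with the plate that holds 94.6% of the counts of injured tdTomato+EGFP+ cells. Its part in the results was not tested, and the members' sums on plate 215, which has none, are given in the report.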

How the results depend on the processing

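No paired analysis was possible because replicate numbers only name cells, no label names an animal and the result comes from no test; the sort was compared within plates. Of the alternative values, 25 medians, 10 counts of members and 13 shares of cells moved and 38, 26 and 31 did not. A reversed direction was looked for only where the main median was 1 or more in size, that is in the injury differences, and none was found. The count of 35 members higher with injury held in both sorts under both other scalings, both pseudocounts, no plate rule, the wider background and without each plate. It was not counted under the other settings. The cause of the shifts below was not tested. The median injury difference in tdTomato+EGFP+ cells was 5.40 with TMM, 5.51 with DESeq2, 3.09 and 5.38 with pseudocounts of 10 and 0.1, and 4.74 to 5.07 without 1 plate. Under the study's limit of 1200 genes it was 0.0, over 10 uninjured and 10 injured cells, and no tdTomato-EGFP+ injured cell remained. In tdTomato-EGFP+ cells it was 2.60 and 5.35 with those pseudocounts, 4.04 as a mean over cells, 4.33 after thinning, 4.26 without the top cell and 4.34 to 4.90 without 1 plate. The sort difference after injury was 1.04 (TMM), 1.19 (DESeq2), 0.86 without the top cells and 0.58 to 0.69 by plate, with 21, 25 and 4 to 8 members past 2-fold. In uninjured cells it was 0.17 as a mean over cells, 0.21 over all cells, 0.30 over members that overlap no gene and 0.11 to 0.25 by plate. There 3 members passed 2-fold with TMM and with DESeq2, 0 and 8 with pseudocounts of 10 and 0.1, 8 with no plate rule and 13 to 16 with 1 plate. The excess of the injury difference in tdTomato+EGFP+ cells was 0.97 (TMM), 1.15 (DESeq2), 0.16 (pseudocount 0.1) and 0.33 to 0.57 without 1 plate.

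Shares of cells with at least 5 members, for uninjured tdTomato+EGFP+ cells, were 9.09% at 50000 counts, 28.47% without thinning, 20.47% and 0.0% with limits of 3 and 10, and 0.0% to 3.13% by plate. For uninjured tdTomato-EGFP+ cells they were 23.58%, 14.13% with a limit of 3, and 0.0% to 2.56% by plate. For injured tdTomato+EGFP+ cells the share was 68 of 100 cells with a limit of 10 and 76.92% to 79.31% by plate. For injured tdTomato-EGFP+ cells they were 48.45% at 50000 counts, 70.87% without thinning, 50.98% and 27.45% with limits of 3 and 10, and 34.09% to 39.66% by plate. A resolution of 0.3 gave 3 clusters. Depth limits members at 0: 3 counts over an uninjured group are 0.0781 and 0.112 CPM.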
